A study of Homo sapiens with 2 samples.

Results

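STMN2-positive cells were a small set of non-dividing cells in the day 160 library of cultures aimed at astrocyte progenitors. Members were selected on 3 genes: 5 or more UMIs of STMN2 and no UMI of MKI67 or TOP2A, among cells in which 1000 genes or more were found and mitochondrially encoded genes took no more than 15% of the UMIs. A UMI stands for 1 captured RNA molecule. The rule took 113 of 9972 passing cells of day 160, out of 10496 passing cells in both libraries. Because STMN2, MKI67 and TOP2A chose the cells, their levels are given as a description only. With 1 library, every other difference is also a description without a test, and intervals cover counting error only.

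STMN2 encodes stathmin-2, a protein of growing axons that binds tubulin, and it is switched on as a newborn neuron extends its processes. Neurons of the forebrain that release GABA, the main inhibitory transmitter of the brain, descend from progenitors that express DLX transcription factors. Their precursors express the microtubule gene DCX while they migrate, and many carry the calcium-binding proteins calretinin (CALB2) and secretagogin (SCGN). Synaptic vesicle genes, NSG2 and RBFOX family splicing genes are typical of neurons further along.

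The series consisted of 2 single-cell libraries of astrocyte progenitors that had been grown from the human embryonic stem cell line H7. One library was taken at day 160 and the other at day 220, and both are labelled with the agents LIF, BMP4 and FGF1. Each library pooled 3 differentiations that no label separates, so each was 1 sample, and cells were freed with Accutase, an enzyme mix for detaching cells. The 113 STMN2-positive cells were set against 1704 cells with 2 or more UMIs of CALB2 and SCGN together and under 5 of STMN2, called CALB2/SCGN cells here, and against all 9859 other passing cells of day 160, which include the CALB2/SCGN cells. STMN2-positive cells held 948978 UMIs in all, with 3013 in the shallowest cell, a median of 6118 and 28643 in the deepest. Median depth was 6545.5 UMIs in CALB2/SCGN cells and 10511 in the other cells. The median share of mitochondrial UMIs was 11.7% in STMN2-positive cells, 12.2% in CALB2/SCGN cells and 11.9% in other cells. Scrublet, a caller of droplets with more than 1 cell, marked 9 of the 113 (7.96%), against 10.2% of CALB2/SCGN cells and 5.82% of other cells. The libraries shared 3 barcodes, none of them among the 113 cells.

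STMN2 (ENSG00000104435, chromosome 8, 79610814 to 79666175 on GRCh38) had between 5 and 32 UMIs in the 113 cells, with a median of 7. It was found in 321 passing cells, of which 122 reached 5 UMIs, and 9 of those 122 were left out because they had MKI67 or TOP2A. Just inside the limit, 23 cells had exactly 5 UMIs. Just outside it, 56 non-dividing cells had 3 or 4. STMN2 was rare elsewhere: 2.11% of other cells, 5.69% of CALB2/SCGN cells and 0.628% of 2547 GFAP-high cells had a UMI. GFAP-high cells, with 10 or more UMIs of the astrocyte filament gene GFAP and under 5 of STMN2, serve as a class that should be low in neuronal RNA (median depth 15698 UMIs). They did not lack all of it. Of the neuronal genes described below, RTN1 had a UMI in 78.6% of GFAP-high cells, 69.5% of CALB2/SCGN cells and 57.5% of other cells. TUBB3 had a UMI in 99.5% of GFAP-high cells. Depth was not evened out for these shares. Summed over cells, STMN2 was at 1118 CPM, UMIs scaled to a total of 1000000 (1052 to 1187), in STMN2-positive cells, 11.8 CPM in CALB2/SCGN cells and 3.86 CPM in other cells.

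**Figure D1:**
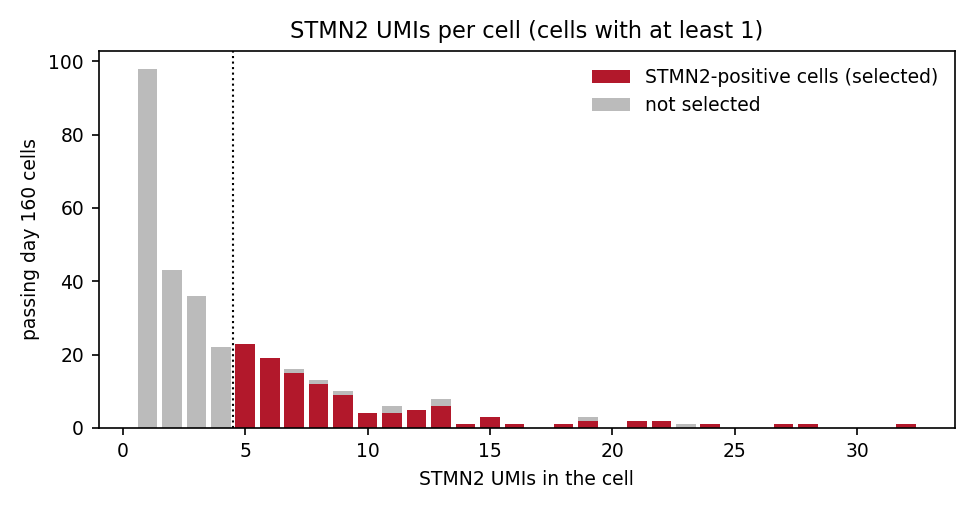
Number of passing day 160 cells (vertical axis) by STMN2 UMIs in the cell (horizontal axis), for cells with at least 1. Red bars are the 113 selected cells, grey bars are cells under the limit of 5 (dotted line) or with MKI67 or TOP2A UMIs. The counts fall off without a gap at the limit, and 35 selected cells had 10 or more.

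The name STMN2-positive neurons was only partly borne out by the other markers given for it. NSG2, a gene of neuronal endosomes, had a UMI in 15 of the 113 cells (13.3%) and RBFOX1, a neuronal splicing gene, in 13 (11.5%). Both were found in 7 cells and neither in 92. At 3000 UMIs per cell, a common depth to which every cell was thinned, NSG2 was found in 7.08% of STMN2-positive cells (3.11 to 13.5), 0.416% of CALB2/SCGN cells, 0.318% of other cells and 0 of 2545 GFAP-high cells, which allows up to 0.118%. Before thinning the shares were 13.3%, 0.587%, 0.598% and 0.157% in that order. RBFOX1 was found in 6.19% (2.53 to 12.3), 1.66%, 1.09% and 0.55% of the same 4 groups in that order, or 11.5%, 3.23%, 3.28% and 2.67% before thinning. RBFOX3, which encodes the NeuN protein of mature neurons, had 5 UMIs in all, from 3 of the 113 cells. SOX2, a transcription factor gene of neural progenitors, had a UMI in 108 of them. The cells are therefore called STMN2-positive cells here, by their rule.

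Against the other passing cells, STMN2-positive cells had more RNA of many genes for microtubules and axon structure, secretory vesicles and interneuron lineage, and less of genes for glia, HLA class II and division. Of 3354 genes with at least 50 CPM in either sum, 163 (4.86%) were at least 2-fold higher and 251 (7.48%) at least 2-fold lower, on the log2 ratio of CPM + 10, and the median gene was at -0.02. Among genes with a UMI in at least 20% of STMN2-positive cells, the highest ratio after STMN2 was that of NSG1. The interneuron peptide gene SST, with a UMI in 2.65% of STMN2-positive cells, was outside that ranking. NSG1 (ENSG00000168824, chromosome 4, 4348140 to 4419058) is a relative of NSG2 that acts in neuronal endosomes. NSG1 had 0 to 10 UMIs per STMN2-positive cell with a median of 1, against 0 to 8 with a median of 0 in other cells. The ranges overlapped, and 64.6% of STMN2-positive cells had a UMI, against 13.7% of other cells. Summed, NSG1 was at 191 CPM (164 to 221) against 17.1 CPM (16.4 to 17.8), 11.2-fold higher (9.54 to 13.0). At 3000 UMIs it was found in 38.1% (29.1 to 47.7) of STMN2-positive cells, 6.6% of other cells and 0.432% of GFAP-high cells (3.57% before thinning).

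Some of the other highest genes have known roles in neurons. INA encodes alpha-internexin, an axonal intermediate filament, and was at 136 CPM (113 to 162) in STMN2-positive cells against 12.9 CPM in other cells. MAPT encodes the microtubule protein tau and was at 60.1 CPM (45.5 to 77.8) against 4.79 CPM, 12.5-fold higher (9.38 to 16.5). RTN1, a reticulon of neuronal endoplasmic reticulum, had 0 to 23 UMIs per cell with a median of 5, against 0 to 33 with a median of 1 in other cells, and was 5.65-fold higher (5.23 to 6.10). The axon microtubule gene DCX (ENSG00000077279, chromosome X, 111293779 to 111412429) was found in all 113 cells, with 2 to 53 UMIs and a median of 10. In other cells DCX had a median of 1 UMI, and its summed level was 1523 CPM (1445 to 1603) in STMN2-positive cells against 291 CPM, 5.22-fold higher (4.95 to 5.51).

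Genes of release stood beside them. SYT1, the calcium sensor of synaptic vesicles (chromosome 12, 78863993 to 79452008), was at 239 CPM (209 to 272) in STMN2-positive cells against 37.1 CPM in other cells, 6.44-fold higher (5.62 to 7.36). SCG3, a secretogranin that binds cargo of dense-core granules, was at 135 CPM (113 to 160) against 13.1 CPM. With no role assigned here, GDAP1L1, TTC9B and KLHL35 were 11.2-fold, 13.6-fold and 9.95-fold higher. The transcription factor gene BCL11A was 5.64-fold higher (4.97 to 6.39). SCGN was 6.15-fold higher (5.33 to 7.07), and CALB2 5.22-fold (4.84 to 5.63).

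**Figure D2:**
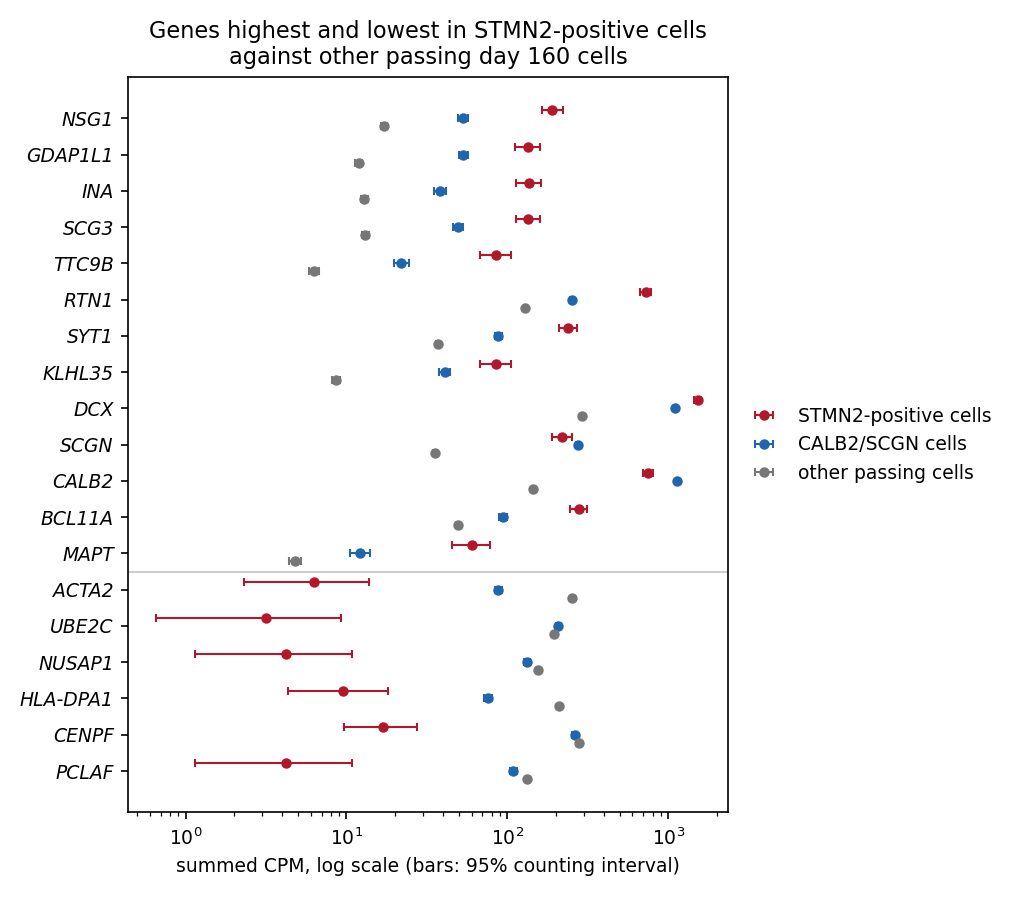
Summed CPM on a log axis for genes of STMN2-positive cells against other passing day 160 cells, without the 3 genes of the rule. Genes have the highest (above the line) and lowest (below it) ratios, with a UMI in at least 20% of the higher group. Red points are STMN2-positive cells, blue CALB2/SCGN cells, grey other cells, and bars are 95% counting intervals. For the 11 upper genes shown other than SCGN and CALB2, CALB2/SCGN cells lie between STMN2-positive cells and other cells.

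Upstream sequence is shown for SCG3 and INA, an example each of the secretory and the filament genes above, with short motifs of kinds bound by neuronal bHLH factors, CAGCTG (its own reverse complement) and CAGATG (read as CATCTG on the other strand), and by homeodomain factors such as DLX proteins, TAATTA. The RefSeq promoter table (GRCh38.p14) held 11 of the 15 highest genes with a UMI in at least 20% of STMN2-positive cells. Motifs were searched on both strands in the 250 bases before each start. CAGCTG was found in 2 of the 11 genes, against 14.0% of all 35116 windows, CAGATG in 1, INA, against 12.2%, and TAATTA in 1, DCX, against 4.35%. The 2 genes with CAGCTG are SCG3 and INA, the 2 shown, so their windows are not typical of the 11. The lines below give, in lower case with the motifs in capitals, chr15:51681253-51681352 (plus strand, 100 bases, ending just before the GENCODE gene) and chr10:103276888-103277137 (plus strand, 250 bases). No motifs overlapped. A match describes the letters of the window, not a site.
SCG3: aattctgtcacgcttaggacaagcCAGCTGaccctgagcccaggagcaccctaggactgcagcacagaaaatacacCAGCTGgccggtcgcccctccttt
INA: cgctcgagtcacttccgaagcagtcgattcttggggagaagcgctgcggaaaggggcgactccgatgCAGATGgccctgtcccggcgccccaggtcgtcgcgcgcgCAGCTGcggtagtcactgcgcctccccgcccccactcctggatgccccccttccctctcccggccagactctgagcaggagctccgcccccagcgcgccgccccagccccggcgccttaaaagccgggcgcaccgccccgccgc

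Neuronal gene lists were read at a lower limit of 20 CPM, where 6748 genes were counted, 3.72% of them higher and 6.71% lower than in other cells by 2-fold or more. Of 28 measured microtubule and axon genes 17 were at least 2-fold higher and none lower, with a median log2 ratio of 1.10. TUBB3, the neuronal beta-tubulin, had a median of 31 UMIs in STMN2-positive cells against 14 in other cells, and was at 3937 CPM (3812 to 4065) against 1305 CPM. Of 12 neuronal RNA-binding genes 9 were higher and none lower (median 1.63), with ELAVL4 at 141 CPM (118 to 167) against 37.5 CPM and CELF4 at 35.8 CPM (24.8 to 50.1) against 1.74 CPM. SRRM4, a splicing activator of neuronal microexons, was at 29.5 CPM (19.6 to 42.6) against 0.571 CPM.

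Of 19 measured genes of synaptic vesicles and secretion 12 were higher and none lower (median 1.53). The vesicle gene RAB3A was at 95.9 CPM (77.2 to 118) in STMN2-positive cells against 13.8 CPM in other cells, the release gene SNAP25 at 86.4 CPM (68.7 to 107) against 14.8 CPM, and synaptophysin (SYP) at 51.6 CPM (38.2 to 68.3) against 9.74 CPM. The list held 33 genes, and 4 of them had no UMI in the 113 cells. Synaptic adhesion and postsynaptic genes were mostly too low to be measured: 10 of 25 reached 20 CPM and 2 of those were higher, NCAM1 among them (median 0.76). Of 7 measured axon guidance receptors 1 was higher, ROBO2, and none lower (median 0.51). That median depended on the processing, at 1.09 with a limit of 10 STMN2 UMIs and 0.09 with the mean of per-cell CPM. Of 19 ion channel genes 4 were measured and 2 were higher, SCN9A among them. SCN2A, a sodium channel gene of neuronal axons, had no UMI in any of the 113 cells, which allows up to 2.65% of cells with a UMI. That limit is above its unthinned share in other cells (2.26%) and CALB2/SCGN cells (0.763%), so the 0 does not set STMN2-positive cells apart from them. In GFAP-high cells the share was 5.89%. Of 13 proneural and early neuron factors 8 were higher, among them SOX4 and SOX11, and POU3F2 was lower at 41.1 CPM (29.2 to 56.2) against 120 CPM.

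**Figure D3:**
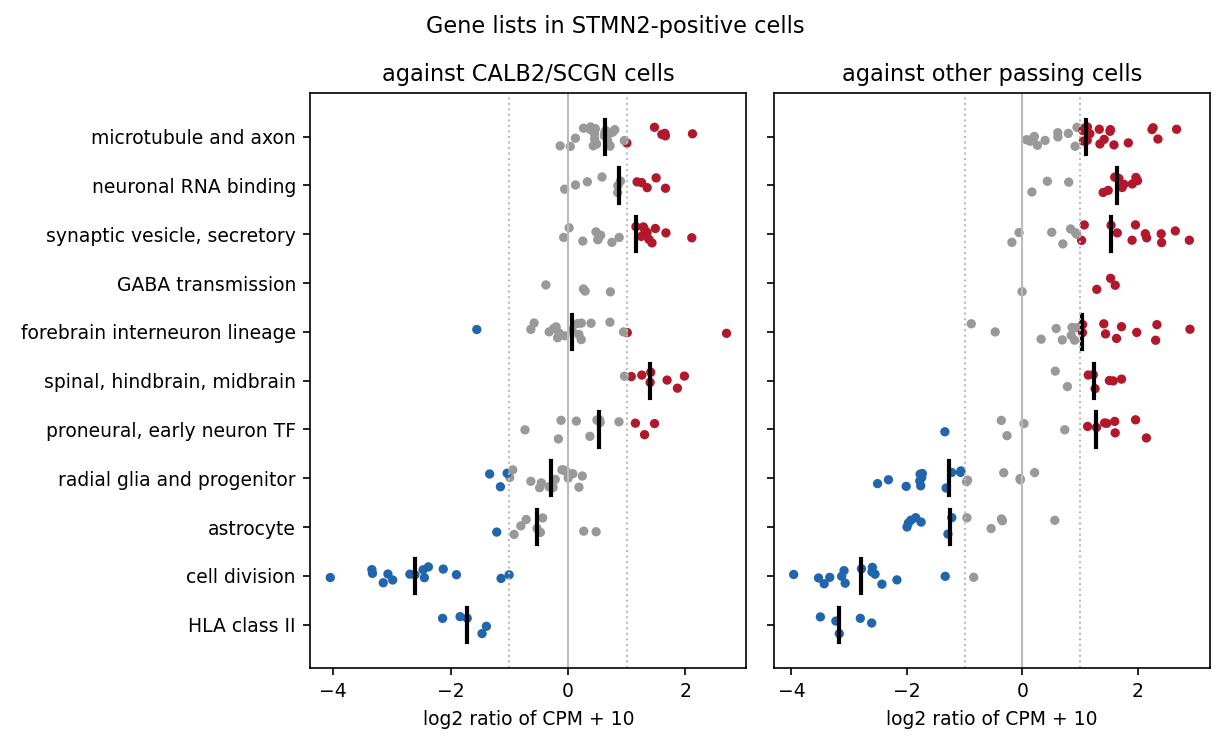
Log2 ratio of CPM + 10 for each measured gene of 11 lists, STMN2-positive cells against CALB2/SCGN cells (left) and against other passing cells (right). Each point is a gene, red at least 2-fold higher, blue at least 2-fold lower, and black bars are list medians where 5 or more genes were measured. On the right the 6 lists from microtubule to proneural genes with a median lie between 1.04 and 1.63, and the radial glia and astrocyte lists at -1.27 and -1.26. On the left the interneuron lineage list has a median of 0.07.

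Genes of GABA synthesis and transport were the only transmitter genes listed that reached 20 CPM. A UMI of GAD1 or GAD2, which encode the enzymes that make GABA, or of SLC32A1, which encodes its vesicle transporter, was present in 88 of the 113 cells (77.9%). A UMI of a vesicular glutamate transporter (SLC17A6, SLC17A7 or SLC17A8) was present in 2 cells, and no cell had both. GAD2 (chromosome 10, 26216307 to 26304558) had 0 to 12 UMIs with a median of 2, and was at 280.3 CPM (248 to 316) in STMN2-positive cells against 109 CPM in other cells, 2.57-fold higher (2.27 to 2.91). GAD1 was 5.01-fold higher (3.59 to 6.82), and SLC32A1 4.40-fold (3.37 to 5.66). At 3000 UMIs, GAD2 was found in 47.8% of STMN2-positive cells (38.3 to 57.4), 25.5% of other cells and 3.22% of GFAP-high cells. Before thinning the shares were 64.6%, 37.0% and 11.7%, with 82.2% in CALB2/SCGN cells. GAD1 was found in 28.3% of STMN2-positive cells and 17.6% of CALB2/SCGN cells, and SLC32A1 in 38.9% and 35.5%. Presence of these genes was therefore not particular to STMN2-positive cells. The listed glutamate, monoamine and acetylcholine genes summed to 23.2, 6.32 and 4.22 CPM, and CHAT and TH had no UMI.

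Genes of the forebrain interneuron lineage were present in most of the cells. DLX2 had 0 to 40 UMIs with a median of 6 and a UMI in 107 of 113 cells, DLX5 had a UMI in 105 and SP9 in 101. Presence of DLX2 was common in the whole library. Before thinning it was found in 82.0% of other cells (median 5 UMIs), 98.5% of CALB2/SCGN cells and 60.9% of GFAP-high cells. DLX5 was found in 52.7% of other cells and 98.5% of CALB2/SCGN cells, and SP9 in 45.9% and 91.5%. Of 19 measured genes of this list 10 were at least 2-fold higher than in other cells and none lower (median 1.04). Against other cells of like depth (4275 to 16730 UMIs) the median was 0.76. DLX5 was at 726 CPM (673 to 782) against 261 CPM, while DLX2 was at 896 CPM (836 to 958) against 551 CPM, under 2-fold. The interneuron peptide gene SST counts among the 10, but 138 of its 142 UMIs came from 1 cell. Without that cell it was at 4.30 CPM, against 11.4 CPM in other cells.

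The cells fell into a group with CALB2 and SCGN and a group with HOXB genes, whose known domains are the hindbrain and spinal cord. Of the 33 genes listed for spinal cord, hindbrain and midbrain, 20 had no UMI in the 113 cells, 8 were measured, and the 6 at least 2-fold higher than in other cells were all HOXB genes. With a limit of 2 UMIs for each, 41 cells had CALB2 or SCGN without HOXB genes, 50 had HOXB genes without CALB2 or SCGN, 15 had both and 7 had neither. Among other cells these shares were 13.5%, 33.8%, 3.78% and 48.9%. The 15 cells with both had a median of 13468 UMIs, against 5524 and 6399.5 in the first and second group, and 3 of them were marked as doublets. CRABP1, a gene for a carrier of retinoic acid in the cytoplasm, had 2 or more UMIs in 39 of the 50 HOXB cells and in 0 of the 41 CALB2/SCGN-type cells. Among the 113 cells CRABP1 ranged from 0 to 184 UMIs with a median of 1.

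**Figure D4:**
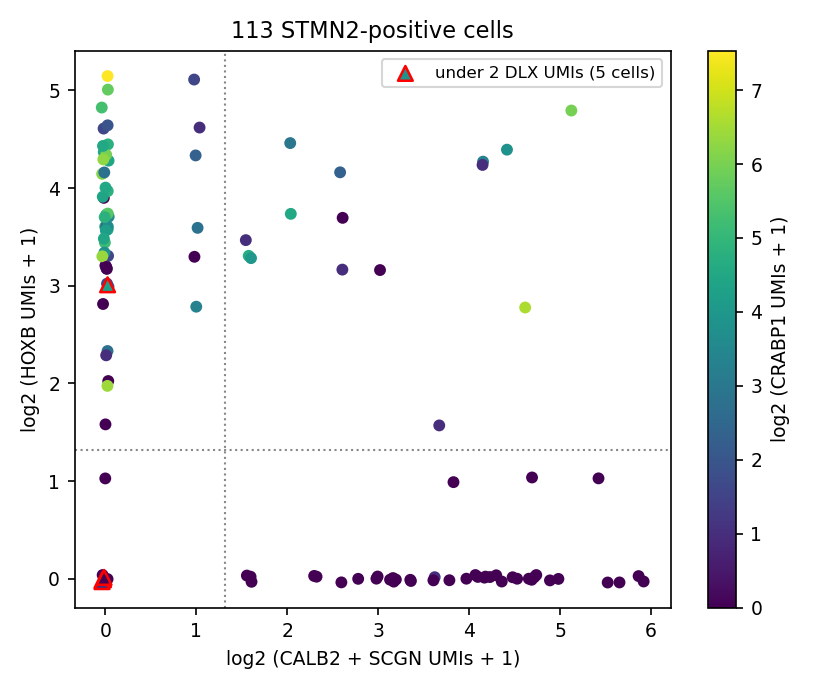
The 113 STMN2-positive cells by CALB2 + SCGN UMIs (horizontal) and HOXB UMIs (vertical), each as log2 of UMIs + 1 with a small random shift, coloured by CRABP1. Dotted lines mark the limit of 2 UMIs, and red-edged triangles are the 5 cells under 2 DLX UMIs. Cells lie mainly along both axes, 50 on the HOXB side and 41 on the CALB2 and SCGN side, with 15 between.

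Genes outside that split differed between the 2 groups too. GAD2 was at 186 CPM in HOXB cells and 503 CPM in CALB2/SCGN-type cells, a ratio of 0.37 (0.28 to 0.49), and SLC32A1 had a ratio of 0.36 (0.18 to 0.67). A UMI of GAD1, GAD2 or SLC32A1 was present in 33 of 50 HOXB cells and 39 of 41 CALB2/SCGN-type cells. DCX was at 1076 CPM in HOXB cells and 2225 CPM in CALB2/SCGN-type cells, a ratio of 0.48 (0.43 to 0.55). The transcription factor gene BCL11B was at 25.1 CPM and 189.8 CPM in the same order, and its relative BCL11A at 439 CPM and 130.1 CPM, a ratio of 3.38 (2.36 to 4.95). NSG1 had a ratio of 2.08 (1.41 to 3.13), and NEFM, a neurofilament gene of long axons, was at 80.3 CPM and 3.52 CPM, the second from 1 UMI, a ratio of 22.8 (3.81 to 930). Without 1 HOXB cell with 20 NEFM UMIs it was at 31.9 CPM, a ratio of 9.08 (1.34 to 388). STMN2 itself, RTN1, TUBB3, DLX2 and SP9 had ratios between 0.88 and 1.07.

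A further pattern was seen in 5 cells, 4 of them with neither HOXB nor CALB2 and SCGN and 1 among the HOXB cells. They had under 2 UMIs of DLX genes, no UMI of SOX2, GAD1, GAD2 or SLC32A1, and a UMI of NEUROD2, NEUROD6 or BHLHE22, bHLH factors found in excitatory cortical neurons. These cells were singled out after their values were seen. NEUROD2 (chromosome 17, 39603536 to 39609777) had 8, 7, 6, 4 and 0 UMIs in the 5 cells, and NEUROD6 had 8, 7, 3, 0 and 0. The HOXB cell had 7 HOXB UMIs, 18 of CRABP1 and 3 of BHLHE22, with none of NEUROD2 or NEUROD6. Over the 5 cells CRABP1 had 18, 14, 1, 0 and 0 UMIs, so 2 of the 5 also had much RNA of that gene. TBR1, a factor of deep-layer cortical neurons, had 4 and 1 UMIs in 2 of them, and SLC17A7, a vesicular glutamate transporter gene, 1 UMI in each of 2. They held 36459 UMIs together, with depths from 3013 to 9822, and none was marked as a doublet. STMN2 had 27, 22, 9, 9 and 6 UMIs in the 5 cells and was at 2002 CPM, against 1083 CPM in the remaining 108. NSG2 was at 247 CPM and 28.5 CPM in the same order, and the 3 cells with RBFOX3 were all among the 5. Elsewhere in the library a UMI of NEUROD2 or NEUROD6 was found in 39 other cells.

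Glial and progenitor genes were lower than in other cells, without being absent. Of 18 measured radial glia and progenitor genes 12 were at least 2-fold lower and none higher (median -1.27), and of 12 astrocyte genes 7 were lower and none higher (median -1.26). Against other cells of like depth these medians were -0.92 and -1.18. VIM, the intermediate filament gene of progenitors, was at 1445 CPM (1369 to 1523) against 7253 CPM, 5.02-fold lower (4.76 to 5.30). The Notch target HES5 was at 89.6 CPM (71.5 to 111) against 330 CPM, and HES1 at 3.16 CPM from 3 UMIs against 43.1 CPM, 13.6-fold lower (4.66 to 66.2). SOX2 was at 790.3 CPM (735 to 849) against 992 CPM, 1.25-fold lower (1.17 to 1.35), and did not pass 2-fold. At 3000 UMIs SOX2 was found in 85.8% of STMN2-positive cells (78.0 to 91.7) and 91.2% of other cells, or 95.6% and 98.5% before thinning. GFAP was at 137 CPM (114 to 163) against 550 CPM, and the astrocyte genes CLU and S100B were 3.64-fold and 2.67-fold lower.

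Much of the VIM and GFAP RNA sat in few cells. VIM had a median of 2 UMIs in STMN2-positive cells and 257 in the highest. The 8 cells with 50 or more held 72.3% of the VIM UMIs and 74.6% of the GFAP UMIs. They were picked by their VIM UMIs, so the VIM share follows in part from the pick. Of these 8 cells 5 were marked as doublets, and their median depth was 17822 UMIs, against 6010 in the remaining cells. Without them VIM was at 477 CPM, a level that the pick by VIM also lowers. With the marked doublets left out, the list medians against other cells were -1.61 for radial glia and progenitor genes and -1.38 for astrocyte genes.

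HLA class II genes, which present antigens to T cells, were lower in all 5 measured genes (median -3.17). HLA-DRA was at 68.5 CPM (52.9 to 87.3) against 726 CPM, 10.6-fold lower (8.32 to 13.7), and HLA-DPA1 at 9.48 CPM (4.34 to 18.0) against 210.1 CPM. Of the 9 HLA-DPA1 UMIs 5 were in 1 cell, without which it was at 4.28 CPM. With members taken from 3 STMN2 UMIs the median of the list was -2.0. The contractile gene ACTA2 was at 6.32 CPM (2.32 to 13.8) against 254 CPM, and all 5 measured mesenchymal and contractile genes were lower. Microglia, endothelial and neural crest markers did not reach 20 CPM, with 0, 1.05 and 2.11 CPM summed over each list in STMN2-positive cells. Immediate early and heat shock genes, which respond to cell handling, had medians of -0.15 and -0.37, with none past 2-fold.

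Division genes were also lower, and the rule bears on them. Of 15 measured genes 14 were at least 2-fold lower (median -2.79), among them CENPF at 16.9 CPM (9.64 to 27.4) against 279.9 CPM, NUSAP1, PCLAF, and UBE2C at 3.16 CPM from 3 UMIs against 195 CPM. Cells with MKI67 or TOP2A had been left out of the STMN2-positive cells but not of the other cells. Against other cells with neither gene the median was -0.73, and UBE2C and CENPF had log2 ratios of -0.31 and -0.51.

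Against CALB2/SCGN cells, which share the interneuron lineage genes, fewer genes differed. Of 3108 genes 41 (1.32%) were at least 2-fold higher and 56 (1.8%) at least 2-fold lower, and the median gene was at 0.00. Against CALB2/SCGN cells with neither MKI67 nor TOP2A, 20 genes were lower in place of 56. Of 19 interneuron lineage genes 2 were higher, SST and MEIS2. Without the cell with most of its UMIs, SST was at 4.30 CPM against 14.6 CPM and was no longer higher. The 1 lower gene was the neuropeptide gene NPY at 65.3 CPM (50.1 to 83.8) against 211 CPM, 3.23-fold lower (2.51 to 4.22). No GABA gene passed 2-fold, with GAD2 at 280.3 CPM against 367 CPM, 1.31-fold lower (1.16 to 1.49). SOX2 was at 790.3 CPM against 832 CPM and DLX2 at 896 CPM against 929 CPM, with intervals of the ratio from 0.88 to 1.02 and from 0.90 to 1.03.

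Part of the vesicle, microtubule and RNA-binding genes were higher in STMN2-positive cells than in CALB2/SCGN cells as well. At 20 CPM, where 6469 genes were counted, 1.13% of them higher and 2.2% lower, 10 of 19 synaptic vesicle and secretory genes, 6 of 28 microtubule and axon genes and 5 of 12 RNA-binding genes were higher, and none was lower. None of 8 synaptic adhesion and postsynaptic genes (median 0.19) and none of 7 axon guidance receptors (median 0.33) passed 2-fold. NSG1 was at 191 CPM (164 to 221) against 53.2 CPM (49.7 to 56.9), 3.59-fold higher (3.04 to 4.22). INA was 3.56-fold higher (2.92 to 4.31), MAPT 4.92-fold (3.60 to 6.64) and TTC9B 3.90-fold (3.02 to 4.98). SYT1 was found in 53.1% of STMN2-positive cells (43.5 to 62.5) and 22.4% of CALB2/SCGN cells (20.5 to 24.5) at 3000 UMIs, with 3.58% of GFAP-high cells, or 67.3%, 44.4% and 15.7% before thinning. NEFM was at 42.2 CPM (30.1 to 57.4) against 2.0 CPM, 21.1-fold higher (12.9 to 34.6), and 20 of its 40 UMIs were in 1 cell. Without that cell it was at 21.6 CPM, 10.8-fold higher (5.85 to 19.4).

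HOXB genes and CRABP1 were also among the highest ratios against CALB2/SCGN cells. HOXB5 (chromosome 17, 48591257 to 48593961) was at 233 CPM (203 to 266) against 51.5 CPM, 4.52-fold higher (3.88 to 5.25), and HOXB8 and HOXB2 were 5.18-fold and 3.56-fold higher. CRABP1 was at 1496 CPM (1420 to 1576) against 380.4 CPM, 3.93-fold higher (3.71 to 4.17). Among the 56 STMN2-positive cells that also had 2 or more CALB2 and SCGN UMIs, none of these 4 genes passed 2-fold, with log2 ratios of 0.10 for HOXB5, 0.42 for CRABP1, 0.94 for HOXB8 and 0.48 for HOXB2. The synaptic list kept a median of 1.0 there, against 1.16 over all 113 cells. The median gene of the astrocyte list was at -0.53, with GJA1 lower, and became 0.08 against CALB2/SCGN cells of like depth. Each of 5 HLA class II genes was lower (median -1.72), and the median was -0.58 with members from 3 STMN2 UMIs. The lowest ratios were those of the division genes CENPF, NUSAP1, HMGB2, PCLAF, CDK1 and SMC2, again with cells holding MKI67 or TOP2A left out of the STMN2-positive cells alone.

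Levels were followed across STMN2 counts among passing cells without MKI67 and TOP2A. Cells with 0, 1 or 2, 3 or 4, 5 or 6 and 7 or more STMN2 UMIs numbered 7030, 117, 56, 42 and 71. NSG1 was at 19.1, 112, 121, 166 and 204 CPM over these 5 steps, and RTN1 at 149.9, 399, 518, 578 and 805 CPM. The intervals of NSG1 overlapped between all neighbouring steps with an STMN2 UMI, and those of RTN1 between the third and the fourth step. DCX was at 318 CPM with no STMN2 UMI and at 1196 to 1539 CPM in the steps above. SYT1 was at 238, 228 and 245 CPM in the last 3 steps, whose intervals overlap. GAD2 followed no order, at 107, 211, 170.0, 341 and 247 CPM. VIM was at 7466 CPM with no STMN2 UMI, 2899 and 3259 CPM in the cells with fewer than 5, and 1589 and 1365 CPM in the selected cells. Depth differed along the series, with medians of 9529, 6286, 6470.5, 5911 and 6343 UMIs, and its part in these values was not tested.

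**Figure D5:**
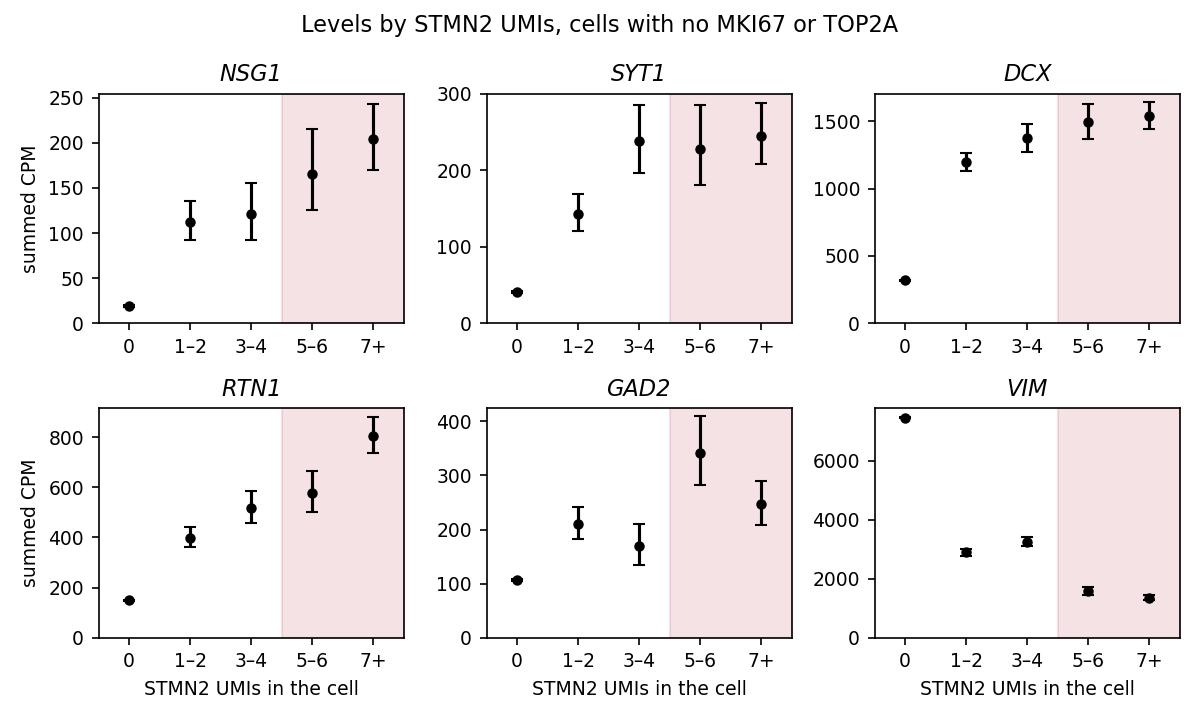
Summed CPM (vertical axes, from 0) of 6 genes in passing day 160 cells without MKI67 or TOP2A, by STMN2 UMIs in the cell (horizontal axes). Points are sums over 7030, 117, 56, 42 and 71 cells, bars are 95% counting intervals, and the shaded steps are the selected cells. NSG1 and RTN1 have higher sums at each step, with overlapping intervals between most neighbouring steps of NSG1, while VIM is at 7466 CPM in cells without STMN2 and at 1365 CPM in the last step.

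STMN2-positive cells made no cluster of their own. When all passing cells of day 160 were clustered, 44 of the 113 lay in a cluster led by CALB2, SCGN, BCL11B, DCX and GAD2, and 39 in one led by CRABP1 and HOXB6. A further 15 lay in one led by FABP5 and POU3F4, and 10 in one led by SERPINA3, KANK4 and DCX. They made up 2.52%, 3.16%, 4.32% and 3.47% of these clusters. The last 5, those under 2 DLX UMIs, lay in a cluster of 816 cells led by GADD45G and LMO1. No STMN2-positive cell lay in the clusters led by HLA class II or contractile genes. None lay in the clusters led by division genes either, which follows in large part from the rule on MKI67 and TOP2A.

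The same rule found no cell at day 220. There 0 of 524 passing cells qualified, which allows a share of up to 0.573%, and the whole library held 1 STMN2 UMI in passing cells at a median depth of 46438 UMIs, against 1555 UMIs at a median of 10458 at day 160. With 1 library a time point, time and culture cannot be told apart.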

How the data were processed

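Both libraries were prepared with the 10x Genomics Chromium 3′ v3.1 kit, per the labels. Per the file headers, Cell Ranger 7.0.1 made the deposited matrices of unnormalized UMI counts. The submitters' processing notes list Cell Ranger 7, Seurat 4 and hg38. Settings for introns and strand (not given in the sources used here) could matter, and genes that overlap another, such as MAPT and DLX6-AS1, are uncertain.

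Counts were summed over the cells of a group and scaled to CPM. Ratios are log2 of CPM + 10, and folds in the text are CPM ratios without a pseudocount. Genes with 50 CPM in either sum were counted (lists: 20 CPM) as at least 2-fold higher or lower. Intervals at 95% are exact Poisson for CPM, exact conditional binomial for ratios and Clopper-Pearson for shares. They cover counting error only, and no p-value was computed because cells of 1 library are not replicates. A limit for 0 counts is 3 cells, and 3 UMIs made 3.16 CPM in STMN2-positive cells. Shares were taken after thinning each cell to 3000 UMIs, which left out 117 other cells, 20 CALB2/SCGN cells and 2 GFAP-high cells. Scrublet (scanpy 1.11.5, expected rate 0.06) marked 583 doublets at day 160, which were kept except where stated. Clusters used 2000 variable genes, 30 principal components, 15 neighbours and Leiden resolution 0.5. Named genes are the 15 highest and 8 lowest ratios against other cells, and 10 and 6 against CALB2/SCGN cells, with a UMI in at least 20% of the higher group, plus listed genes, and some of these genes are not reported here. Coordinates are from GENCODE release 29 on GRCh38, by Ensembl identifier. On simulated counts the ratio step was checked before use. The rule for the cells, the gene lists and the named-gene rule were chosen with earlier results of these data known.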

Additional observations from a re-analysis of the deposited data

Results flagged for a closer look

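STMN2 was also found in barcodes that did not pass the filters and entered no comparison. At day 160, 33 such barcodes had 5 or more STMN2 UMIs, 32 of them over the 15% mitochondrial limit and 1 under the gene limit, and 31 had no MKI67 or TOP2A UMI. Their median mitochondrial share was 16.2% and the highest 19.8%. Their median depth was 6308 UMIs and STMN2 was at 1242 CPM, against 6118 UMIs and 1118 CPM in STMN2-positive cells. NSG1 was at 262 CPM against 191 CPM, NSG2 at 96.7 CPM against 36.9 CPM, GAD2 at 137 CPM against 280.3 CPM and SOX2 at 528 CPM against 790.3 CPM, in the same order. Why they differed was not tested.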

How the results depend on the processing

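The number of STMN2-positive cells was 35 with a limit of 10 STMN2 UMIs and 28 with a mitochondrial limit of 10%. Against other cells, a filter of 100 CPM gave 102 genes higher and 125 lower, no filter 273 and 537, and other cells of like depth (4275 to 16730 UMIs) 153 lower, set against 163 and 251 as reported. Against CALB2/SCGN cells, where 41 were higher and 56 lower, the limit of 10 STMN2 UMIs gave 78 and 88, the mitochondrial limit 81 and 180, the 100 CPM filter 23 and 31, and no filter 84 and 194. There CPM without mitochondrially encoded and ribosomal protein genes gave 101 lower, and 2 alternatives chosen after seeing the data gave 20 lower, against cells with no MKI67 or TOP2A, and 24 higher, for members with CALB2 and SCGN. Some list medians shifted too, such as that of axon guidance receptors against other cells, which was 1.09 with the limit of 10 STMN2 UMIs in place of 0.51. Filters and limits change how many genes or cells are counted, and the cause of the other shifts was not tested. Of 470 values of named genes under the alternatives, those of STMN2, MKI67 and TOP2A left aside because the rule sets them, 458 stayed past 2-fold in the same direction. The 12 that did not were 7 values of division genes against cells without MKI67 and TOP2A, and 5 values among members with CALB2 and SCGN, those of HOXB5 and CRABP1 included. The 458 are no independent check, because the genes were named for their extreme ratios in these data. The 100 CPM filter and no filter also leave a gene's own ratio unchanged, so values under them were fixed in advance. No paired analysis was possible because the only library of day 160 has no replicate. The depth of 948978 UMIs limits what can be said of genes near 3.16 CPM.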
